A study of Caenorhabditis elegans with 2 samples.

Results

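Regions of FAX-1 signal at nuclear tRNA genes were taken from an anti-GFP ChIP-seq experiment on whole late embryos of Caenorhabditis elegans. The animals were hermaphrodites of strain OP164, a transgenic line that stably expresses FAX-1 with a GFP-FLAG tag at its C-terminus, collected 4 hours after synchronization by egg bleaching, and both biological replicates belonged to that 1 group. The labels name no promoter for the transgene, and no untagged strain, other stage or other factor was analysed here. Candidate regions were the pooled, loosely called peaks of both replicates on the ce11 build after overlapping peaks were merged, each placed at the summit of its strongest peak. A region was counted at a tRNA gene when its summit lay in, or within 500 bp of, a nuclear gene of biotype tRNA. By that rule 315 of 12704 merged regions were members, each with a different nearest tRNA gene. Of them, 147 overlapped the authors' final list, the 830 peaks kept as reproducible between replicates, and 168 did not.

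A tRNA is the adaptor that brings 1 amino acid to the ribosome and reads a codon with its anticodon, and tRNAs that carry the same amino acid form an isotype. Nuclear tRNA genes are short and are transcribed by RNA polymerase III from a promoter that lies inside the gene, made of an A box near the start and a B box further in. The factor TFIIIC binds these boxes and places TFIIIB upstream of the start, which recruits the polymerase, and transcription ends at a run of T. FAX-1 is a nuclear hormone receptor of the NR2E class known for interneuron identity and axon pathfinding, and genes of its kind are usually studied as regulators of RNA polymerase II genes. The annotation holds 612 nuclear tRNA genes of 21 isotypes, selenocysteine included, from 64 to 122 bp long with a median of 72 bp. Many are exact copies of each other: the 612 genes held 200 different sequences.

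The sequences of 5 genes under strong regions are shown (WBcel235, the ce11 sequence, from the RefSeq genome), because the boxes of the internal promoter lie within them. They were not chosen by rank alone: C42D8.t1, W03G11.t1 and M02F4.t1 had stronger regions than C33G3.t2 and C06G1.t1 and are not shown, and C06G1.t1 was outside the 10 strongest. Capitals mark matches to GGCNNAGT, the core of the A box, and to GTTCGANNC, the core of the B box, found by searching each gene on its own strand.
C04A11.t1, leucine, anticodon CAA, chrX:13665555-13665673, plus strand, intergenic: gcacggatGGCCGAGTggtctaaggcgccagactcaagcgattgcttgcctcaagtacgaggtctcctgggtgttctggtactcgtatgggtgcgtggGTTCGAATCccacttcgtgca
F15G9.t1, alanine, anticodon UGC, chrX:9743589-9743660, plus strand, in an intron of him-4: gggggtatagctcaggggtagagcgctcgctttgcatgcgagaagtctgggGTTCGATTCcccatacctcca
C02B4.t2, tyrosine, anticodon GUA, chrX:12665228-12665311, plus strand, in an intron of nhr-17: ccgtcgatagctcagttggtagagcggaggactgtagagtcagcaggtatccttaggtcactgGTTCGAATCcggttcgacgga
C33G3.t2, lysine, anticodon UUU, chrX:14063946-14064018, minus strand, intergenic: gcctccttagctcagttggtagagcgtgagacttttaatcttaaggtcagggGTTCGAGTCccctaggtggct
C06G1.t1, histidine, anticodon GUG, chrX:16634830-16634901, minus strand, in an intron of C06G1.1: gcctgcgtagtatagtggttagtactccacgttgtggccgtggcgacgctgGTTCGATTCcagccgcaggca
In these 5 genes the B box core stood near the 3′ end, and of them only C04A11.t1 held the A box core as searched. The B box core was not universal: it was present in 9 of the genes under the 10 strongest regions, C37A2.t1 being the exception, and absent from the nearest gene of 39 of the 147 final regions. Across the 612 genes, 441 held the B box core and 64 the A box core, so the A box pattern as written here is the stricter of the pair. C04A11.t1 occurs once in the genome and holds a 35-base intron, and C02B4.t2 holds an 11-base intron.

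The strongest region at a tRNA gene was at C04A11.t1, with a pooled signal of 493, the value the authors' peak caller gave in its own units. It had a signal of 328 in replicate 1 and 164 in replicate 2, which placed it at rank 27 and rank 29 of the lists of these replicates and at rank 18 of the 12691 nuclear regions. The summit lay at position 17 of the gene, counted from 1 at its first base and, here and below, along the strand of the gene. Signals from the 2 replicates have different scales, so they are compared by rank. F15G9.t1, an alanine gene in an intron of the hemicentin gene him-4, followed with a pooled signal of 393, 255 in replicate 1 and 140 in replicate 2. It ranked 44 in both replicates. C02B4.t2, a tyrosine gene in an intron of the nuclear receptor gene nhr-17, had 338, with 199 in replicate 1 and 133 in replicate 2. The next were C42D8.t1 for isoleucine at 332, W03G11.t1 for lysine at 330, M02F4.t1 for glycine at 326, C33G3.t2 for lysine at 308, C37A2.t1 for cysteine at 308, F41D9.t3 for asparagine at 307 and sup-5 for tryptophan at 301. Of these 10, 8 lay on X, which held 132 of all 315 regions at tRNA genes. C37A2.t1 lay on chromosome I in an intron of the cyclin E gene cye-1, and sup-5 lay on chromosome III in an intron of fli-1. The 10 genes carried 9 isotypes, lysine being present in both W03G11.t1 and C33G3.t2. Mutant alleles of sup-5 are known as amber suppressors in this species.

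Of the regions at tRNA genes, 46.7% were in the final list (147 of 315, 95% Wilson interval 41.2 to 52.2), against 6.17% of all nuclear candidate regions and 5.14% of those not at tRNA genes (636 of 12376). Intervals here and below cover counting error only, regions of 1 pooled list are not replicates, and no p-value is given over them. In an alternative, the final list was replaced by the 830 strongest peaks of each replicate's own list. The regions and summits stayed those of the pooled list, which was made from both replicates. The share was then 45.4% in replicate 1 (143 of 315), where 6.16% of all nuclear regions were called, and 44.4% in replicate 2 (140 of 315), where 6.13% were. Both replicates had 119 of the regions among their strongest peaks, 45 regions were there in 1 replicate, and the rest in neither. The final list held the strongest pooled peaks, so membership is a statement on strength: final regions at tRNA genes had pooled signals from 98.5 to 493 with a median of 150, and the others from 32.3 to 97.5 with a median of 53.7.

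Regions at tRNA genes were most frequent in the upper ranks of the nuclear candidates but not at their very top. Of the 50 strongest nuclear regions, 2 were at tRNA genes (4.00%, 1.10 to 13.5). The share was 24.7% of ranks 51 to 200 (37 of 150, 18.5 to 32.1) and 18.5% of ranks 201 to 783 (108 of 583, 15.6 to 21.9). It was 5.51% of ranks 784 to 2000 (67 regions), 1.5% of ranks 2001 to 5000 (45 regions) and 0.728% of the remaining ranks to 12691 (56 regions). The intervals of the 2 bins from 51 to 783 overlapped, and both lay above those of all lower bins.

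The members nearest to the lower edge of the final list differed little in signal from those just outside it. T04D3.t2, a glycine gene in an intron of the guanylyl cyclase gene gcy-35, was in the list with a signal of 99.3, F19H6.t1 for glutamate with 98.9, and ZK783.t1 for glutamate, in an intron of upp-1, with 98.5. W02G9.t2 for threonine was outside with 97.5, B0228.t1 for glutamine with 96.9 and Y7A9D.t2 for alanine with 95.5. The limit of 500 bp likewise passes through scattered summits. Just inside it were T22F3.t3 at 455 bp, the only one of the 3 in the final list, Y71H2AM.t1 at 403 bp and ZK1067.t1 at 391 bp. Just outside were F58D5.t1 at 511 bp, F27E11.t1 at 515 bp and Y39G10AL.t1 at 524 bp.

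The replicate signals of the regions were compared by rank correlation. The final list came from a reproducibility threshold on data of these same replicates and is cut at a pooled signal. The values for final and other regions therefore describe selected ranges of signal and are not compared as a result. Across the 147 final regions at tRNA genes, which were all found in both replicates, Spearman's rho between the replicate signals was 0.79, a description across regions that share a library. The other 111 members found in both replicates gave 0.25, and all 258 together 0.85. Final nuclear regions not at tRNA genes gave 0.67 (n = 635). The final regions whose ranks differed most between replicates were T03E6.t1 for glutamine, at rank 500 in replicate 1 and 4547 in replicate 2, F42A10.t1 for serine, at 536 and 3206, and Y65A5A.t1 for alanine, at 485 and 1958. Each ranked higher in replicate 1. Of the 168 members outside the final list, 144 had a peak in replicate 1 and 134 in replicate 2.

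**Figure D1:**
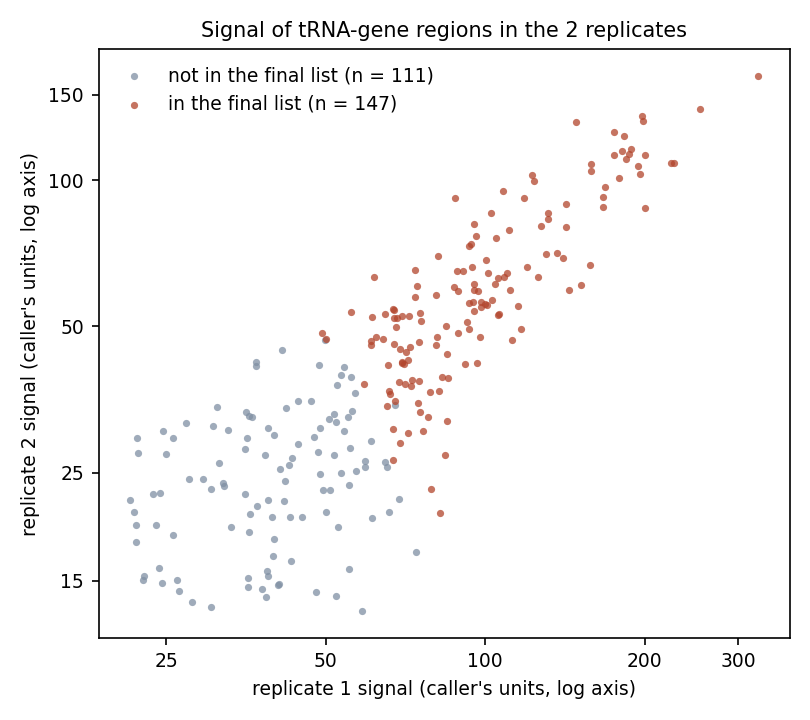
Signal of each region at a tRNA gene in replicate 1 (x, log axis) and replicate 2 (y, log axis), in the units of the authors' peak caller, for the 147 final regions and the 111 others found in both replicates; each point is 1 region. The final regions form a band from lower left to upper right (Spearman's rho 0.79) and the others a cloud with little order (0.25), over ranges of signal set by the selection of the list.

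Summits in the final list lay close to the tRNA gene. Their median position was 16 (95% interval of the median 10 to 33), with the middle 50% between -3 and 52.5, and 144 of 147 lay inside or within 100 bp of the gene (98.0%). Of the final summits, 42 lay upstream, 88 inside and 17 downstream. Positions 1 to 20, the stretch that holds the A box in a typical tRNA gene, had 37 final summits, and the wider stretch of 50 bp upstream had 41. Summits outside the final list had a median of 29 (17 to 43) and were spread more widely, with 59 upstream, 69 inside and 40 downstream, and 138 of 168 inside or within 100 bp (82.1%). The intervals of the medians overlapped. The median depended on how peaks were handled: it was 29 (14 to 40) over the 193 final peaks when overlapping peaks were not merged, and 10 (8 to 18) in the stronger 50% of the final list. Among regions of the most common width, 436 bp, final and other summits had medians of 29 and 26.

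**Figure D2:**
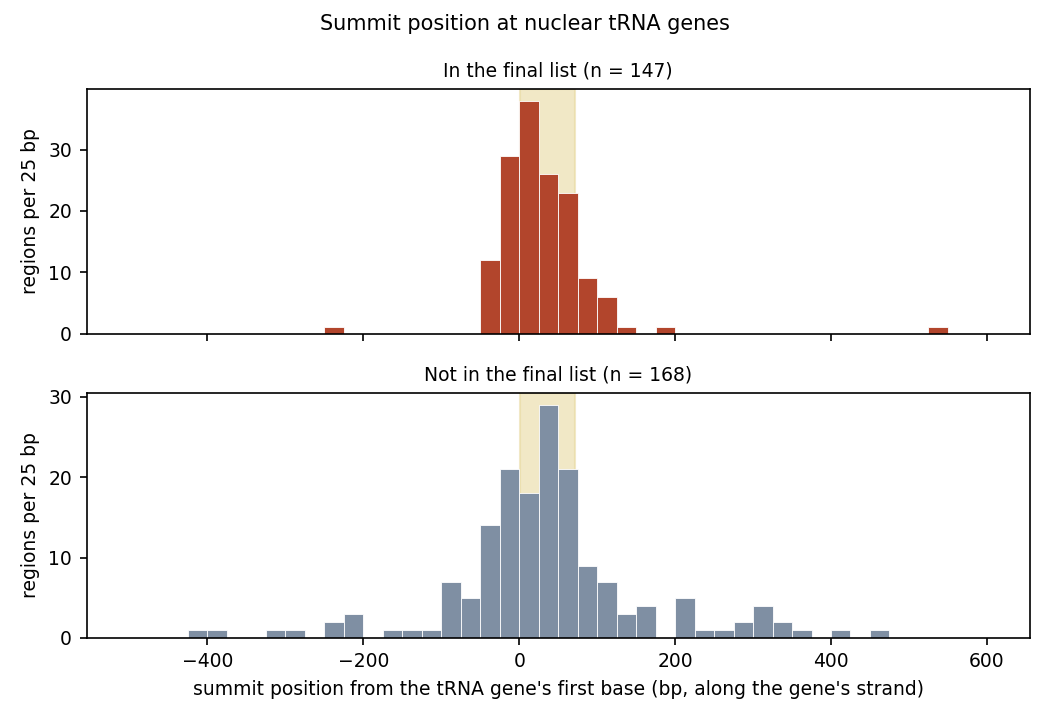
Number of summits per 25-bp bin (y) by position along the strand of the nearest tRNA gene (x, bp from its first base), for the 147 final regions (top) and the 168 others (bottom); the shaded band spans the median gene length of 72 bp. Final summits lie close to the gene, at a median of 16, and the others spread further to both sides.

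Regions with the summit inside the tRNA gene were more often in the final list than those with the summit beside it. The shares were 56.1% (88 of 157, 48.2 to 63.6) and 37.3% (59 of 158, 30.2 to 45.1), a difference of 18.7 percentage points (95% Newcombe interval 7.70 to 29.1). It was 21.2 points in replicate 1 and 19.3 in replicate 2. The median pooled signal was 106 inside and 67.4 beside. Of the regions beside the gene, 41.6% were final upstream (42 of 101) and 29.8% downstream (17 of 57), and the interval of that difference, 11.8 points, included 0 (-4.0 to 25.9). The contrast between inside and beside depended on summits far from the gene and on merging: it was 11.3 points (-0.48 to 22.6) among summits within 100 bp, and 8.27 (-1.87 to 18.1) when overlapping peaks were counted separately. A single width of 436 bp was shared by 233 of the 315 regions. Of the final regions, 83 had this width, and the 64 of other widths had a median summit position of 10.5. The part of read mapping in the contrast between inside and beside was not tested.

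On X, 55.3% of the regions at tRNA genes were in the final list (73 of 132, 46.8 to 63.5), and on the autosomes 40.4% (74 of 183, 33.6 to 47.7). The difference was 14.9 points (3.69 to 25.6), with 14.4 in replicate 1 and 17.4 in replicate 2. The share over all nuclear candidate regions was not split by chromosome. Whether the difference is particular to regions at tRNA genes was therefore not tested. Among single autosomes the share was 58.3% on chromosome III (21 of 36), 45.9% on II (17 of 37), 35.3% on V (12 of 34), 33.3% on I (12 of 36) and 30% on IV (12 of 40). Chromosome III was thus at least as high as X, and the intervals of II (31.0 to 61.6) and III (42.2 to 72.9) overlapped that of X. The median pooled signal was 104 on X, 106 on III, 89.3 on II, 78.9 on IV, 77.8 on I and 70.5 on V. With the isotype mix held equal over the 20 isotypes found on both, the difference between X and autosomes was 15.5 points (4.76 to 26.3). It was 9.48 points (-15.5 to 35.2) at the 52 regions whose gene occurs once in the genome, an interval that included 0.

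**Figure D3:**
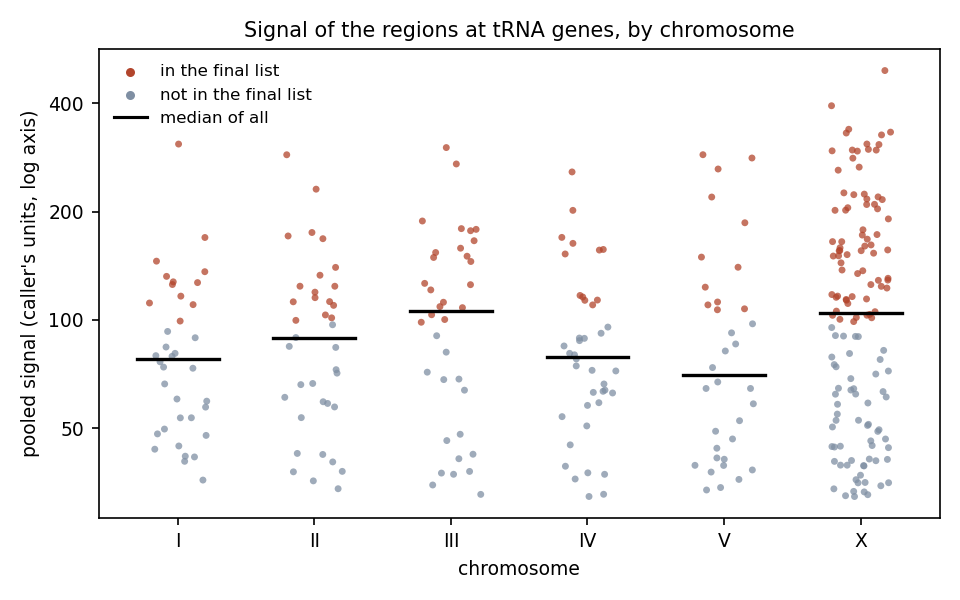
Pooled signal (y, log axis, units of the authors' peak caller) of every region at a tRNA gene by chromosome (x), coloured by membership in the final list; each point is 1 region and bars are medians. Medians are 104 on X and 106 on III and lie between 70.5 and 89.3 on the other chromosomes, with wide overlap.

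Counted from the genes, so that genes with no candidate enter, 367 of 612 nuclear tRNA genes had a candidate summit (60%, 56.0 to 63.8) and 168 a final one (27.5%, 24.1 to 31.1). For comparison, 2.64% of 19973 protein-coding genes had a final summit within 500 bp of the 5′ end. A candidate was as frequent on X, at 59.8% of 276 genes, as on the autosomes, at 60.1% of 336, with a difference of -0.34 points (-8.12 to 7.40). A final summit was present at 31.2% of the genes on X (86) and at 24.4% on the autosomes (82), and the interval of this difference of 6.75 points included 0 (-0.35 to 13.9). It was 6.92 points in replicate 1 (-0.11 to 14.0) and 9.50 in replicate 2 (2.47 to 16.5). Over genes, the autosomes ranged from 16.7% on V (13 of 78), 16.9% on IV (12 of 71) and 18.2% on I (12 of 66) to 35.1% on II (20 of 57) and 39.1% on III (25 of 64).

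A tRNA gene was called clustered when another nuclear tRNA gene lay within 1000 bp, and lone otherwise. Regions at clustered genes were less often in the final list, with 35.7% (30 of 84, 26.3 to 46.4) against 50.6% (117 of 231, 44.2 to 57.0). The difference was -14.9 points (-26.3 to -2.50), and -16.5 and -16.8 in replicates 1 and 2. It depended on the distance that defines a cluster, being -2.92 points (-16.9 to 11.8) at 500 bp and -8.02 (-18.8 to 3.14) at 5000 bp. Counted over genes, 21.6% of 236 clustered genes and 31.1% of 376 lone genes had a final summit, and candidates were present at 57.6% and 61.4%. Of the 315 regions, 271 had 1 tRNA gene within 500 bp of the summit, 37 had 2, 6 had 3 and 1 had 5. Where several genes lie close together, 1 region can stand for more than 1 gene.

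Introns of protein-coding genes hosted 150 of the members, 160 were intergenic and 5 overlapped an exon. The shares in the final list were 46.7% for introns (70) and 46.9% for intergenic genes (75), a difference of -0.21 points (-11.2 to 10.8). Replicate 1 gave -3.54 points and replicate 2 gave 0.29. Over genes, 26.5% of 283 genes in introns and 28.5% of 319 intergenic genes had a final summit. Within introns, genes on the strand opposite to the host had 52.3% of their regions in the final list (34 of 65) and genes on the same strand 42.4% (36 of 85), a difference of 9.95 points whose interval included 0 (-6.01 to 25.3). Near the start of a protein-coding gene lay a minority of the members: 28 of 147 final summits (19%) and 22 of 168 others (13.1%) were within 500 bp of a 5′ end, and the median distance was 1556 bp for the final regions. The share of all nuclear candidate regions this near to a 5′ end was not computed, so these shares have no background beside them.

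**Figure D4:**
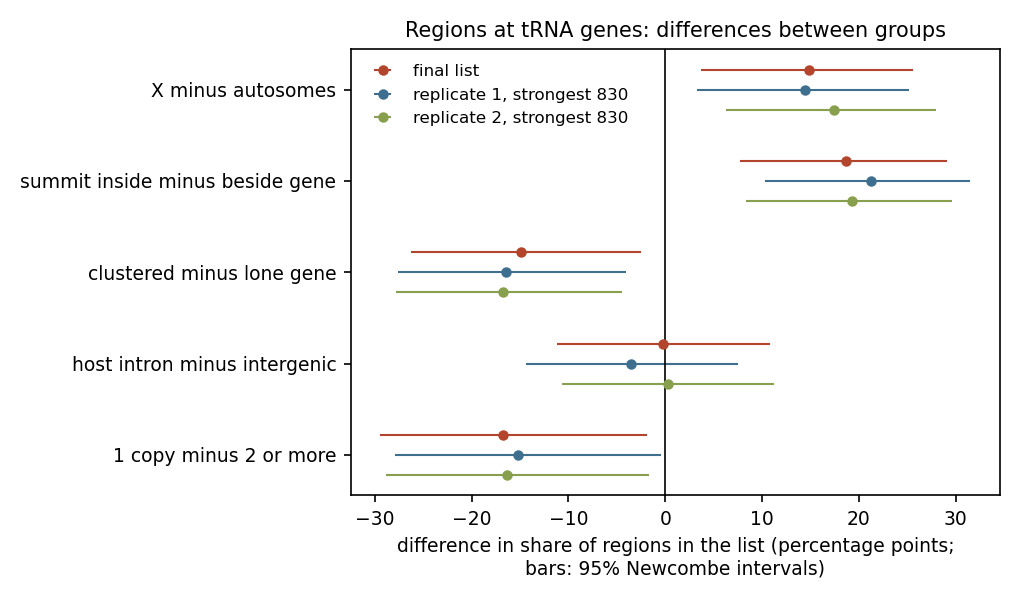
Difference in the share of tRNA-gene regions in the list (x, percentage points, first group minus second) for 5 contrasts (y), with 95% Newcombe intervals, for the final list and for the 830 strongest peaks of each replicate. The regions are those of the pooled list throughout. The replicates give the same direction as the final list for X (14.9 points), summit inside (18.7), clustering (-14.9) and copy number (-16.7), while host intron against intergenic lies at 0 within its interval (-0.21).

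All 20 standard isotypes had at least 1 final region, and in the final list no isotype had an interval that missed the share over all genes. By genes, the share with a final summit ran from 15% for histidine (3 of 20, 5.24 to 36.0) and 16.1% for valine (5 of 31, 7.09 to 32.6) to 36.6% for glutamate (15 of 41, 23.6 to 51.9) and 38.5% for cysteine (5 of 13, 17.7 to 64.5). Each of these intervals contained the share over all genes, 27.5%. In the strongest peaks of replicate 2, with 26.3% over all genes, cysteine stood at 61.5% (8 of 13, 35.5 to 82.3) and arginine at 40.9% (18 of 44, 27.7 to 55.6), both above, and glycine at 14.5% (8 of 55, 7.56 to 26.2), below. In replicate 1 cysteine had 38.5%, and no isotype had an interval that missed the 26.6% over all genes. The share with any candidate ranged more widely, from 30% for histidine (6 of 20, 14.5 to 51.9) to 80.0% for methionine (16 of 20, 58.4 to 91.9) and 84.6% for cysteine (11 of 13, 57.8 to 95.7). The interval for histidine lay below the overall share of 60%, and no adjustment was made for the number of isotypes looked at.

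The strongest region of each remaining isotype showed how far the signal extended over the tRNA set. Glutamate had C28G1.t1 at 298, threonine R01H5.t1 at 296, aspartate F38G1.t2 in an intron of the growth factor gene egl-17 at 296, histidine C06G1.t1 at 295 and serine ZC455.t1 at 288. Valine had R04D3.t2 at 281, methionine T15B12.t1 at 271, proline F46G11.t2 at 261, arginine F29C4.t1 in an intron of the collagen gene col-99 at 258, glutamine R04A9.t1 at 224 and phenylalanine T28B4.t1 in an intron of fbxl-4 at 172. All of these were in the final list. The single selenocysteine gene, K11H12.t1, had a region at 32.3, found in replicate 1 only at a signal of 24.5, with its summit 365 bp from the gene, and it was not in the final list. Among the other 20 isotypes, phenylalanine had the weakest best region.

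**Figure D5:**
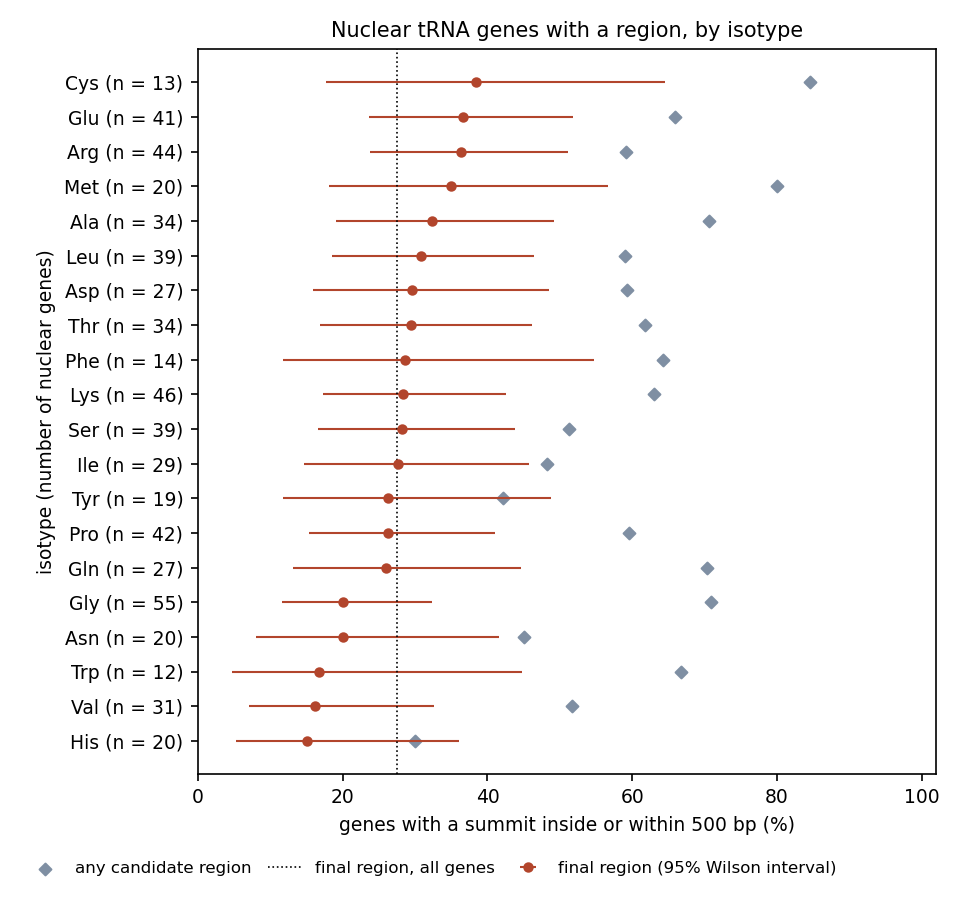
Share of nuclear tRNA genes with a final summit (circles, with 95% Wilson intervals) and with any candidate summit (diamonds) inside or within 500 bp (x, %), by isotype with its number of genes (y); the dotted line is the share with a final summit over all genes, 27.5%. Every interval crosses the dotted line, and shares with any candidate run from 30% for histidine to 84.6% for cysteine.

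Anticodons were read from the folded gene for 597 of 612 genes (97.5%). In the larger anticodon groups the share with a final summit was 19.4% for glycine UCC (7 of 36), 25.8% for lysine CUU (8 of 31), 19.4% for proline UGG (6 of 31), 29.6% for aspartate GUC (8 of 27) and 33.3% for glutamate CUC (8 of 24). Arginine UCU had 62.5% (5 of 8, 30.6 to 86.3), and its interval lay above the overall 27.5%, as 1 of 47 anticodon groups. Genes read as holding an intron of their own had a final summit in 33.3% (10 of 30, 19.2 to 51.2) and genes read without in 27.9% (158 of 567). An intron was read only where the pairing scored better with it, so some can be missed. None of the 15 genes whose anticodon could not be read had a final summit, and the interval reaches 20.4%.

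Annotated tRNA pseudogenes, compared after the values were seen, carried far fewer final regions. RefSeq lists 209 nuclear tRNA pseudogenes, and 38 had a candidate summit (18.2%, 13.5 to 24.0) and 3 a final one (1.44%, 0.489 to 4.13). The difference between genes and pseudogenes was 41.8 points for candidates (34.8 to 47.8) and 26 points for final summits (21.7 to 29.8), and 25.2 and 24.9 for the strongest peaks of replicates 1 and 2. The 3 pseudogenes were D1046.t1 on IV with a signal of 280, T08B2.t1 with 205 and C52E12.t1 on II with 161. None of the 3 lay within 1000 bp of an annotated tRNA gene. Sequence in the 200 bp around pseudogenes was less often unique: under 50% of its 31-base words occurred once in the genome at 41 of 209 pseudogenes, against 11 of 612 genes. None of these 11 genes had a candidate (0 to 25.9%). Within the sequences themselves the order was reversed: 37 of 209 pseudogenes (17.7%) had no 31-base word that occurs once, against 474 of 612 genes (77.5%). The median of the flanks was 100% unique in both. The part of read mapping in the counts was not tested.

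The comparison of copy numbers, also added after the values were seen, set genes whose sequence occurs once in the genome against those with copies. A final summit was present at 16.4% of 140 genes with 1 copy (23) and 30.7% of 472 genes with more, a difference of -14.3 points (-21.1 to -6.22). Candidates were present at 47.9% and 63.6%, a difference of -15.7 points (-24.8 to -6.36). Beyond 1 copy, final summits were present at 38.6% of genes with 2 to 5 copies, 29.0% with 6 to 10, 30.5% with 11 to 20 and 26.3% with more than 20. Candidates rose at each step, from 56.6% with 2 to 5 copies to 61% with 6 to 10, 66.3% with 11 to 20 and 66.7% with more than 20, with overlapping intervals between neighbouring steps. Among genes that hold the B box core the difference was -12.1 points for final summits (-20.4 to -1.83) and -11.1 points for candidates, whose interval included 0 (-22.4 to 0.31). Of the 612 genes, 474 had no 31-base word that occurs once in the genome. Such genes had a final summit more often than the rest, 145 of 474 against 23 of 138, a difference of 13.9 points (5.78 to 20.7). A gene with an exact copy holds no such word, so this split is nearly that of the 472 and 140 genes above. It is not a separate result. The flanks were mostly unique, with a median of 100% for genes with a final summit and for genes without a candidate. Still, candidates were present at 64.6% of 429 genes with flanks 100% unique, 52.3% of 172 genes at 50 to under 100%, and 0 of 11 below. Final summits were present at 30.3%, 22.1% and 0%. The part of uniqueness in these counts was not tested. Neither the read length nor the treatment of reads with several matches is stated by the labels or file headers.

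Copies with the same sequence could differ in signal. There were 57 families of identical genes, which held 469 genes, and 32 families had 5 or more. At least 1 copy with a final summit and at least 1 other with no candidate were found in 39 of the 57 families, that is in 31 of these 32 and in 8 of the 25 smaller ones. In 3 families all copies were final and in 10 none was. Larger families have more copies in which both can occur, and over all genes 168 of 612 had a final summit and 245 no candidate. The alanine UGC family of F15G9.t1 has 8 copies, all with the gene sequence given above for F15G9.t1. The 60 bases upstream of 5 copies are shown because the gene sequence itself is the same in all of them, and these stretches are not.
F15G9.t1, final, chrX:9743529-9743588, plus strand: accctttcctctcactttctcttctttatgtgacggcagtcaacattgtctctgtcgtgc
T07H6.t2, final, chrX:6292350-6292409, minus strand: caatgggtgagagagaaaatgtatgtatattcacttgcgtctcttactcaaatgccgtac
Y37A1B.t1, candidate only, chrIV:14013877-14013936, minus strand: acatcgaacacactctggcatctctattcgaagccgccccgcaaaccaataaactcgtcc
B0491.t2, no candidate, chrII:11334085-11334144, minus strand: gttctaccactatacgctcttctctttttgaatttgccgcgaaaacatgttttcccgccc
Y105C5A.t2, no candidate, chrIV:15604384-15604443, minus strand: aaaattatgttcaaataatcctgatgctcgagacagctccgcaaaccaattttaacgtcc
F15G9.t1 had a pooled signal of 393 with the summit at position 9, and T07H6.t2 had 294 (196 in replicate 1 and 103 in replicate 2) with the summit at position -4. Another tRNA gene lay 87 bp from F15G9.t1, and the summit of this region had 2 tRNA genes within 500 bp. Its signal can therefore not be assigned to F15G9.t1 alone. Y38E10A.t1 on II was final at 119, with the summit 226 bp upstream. Y37A1B.t1 had 87.6 (65.8 and 20.7) and T07H6.t1 had 78.8 (37 and 42.3), and neither was final. B0491.t1, B0491.t2 and Y105C5A.t2 had no candidate summit within 500 bp. The 200 bp flanks of these 3 genes were at least 99.4% unique in 31-base words, and those of F15G9.t1 were 83.2% unique.

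Sequence searches in windows from 75 bp before to 75 bp after each summit, on both strands, gave the B box core GTTCGANNC in 61.2% of final members (90 of 147) and 41.7% of other members (70 of 168), against 2.47% of all nuclear candidate windows. In the final members, all 90 windows had a match wholly inside a tRNA gene. Counted in the gene nearest to the summit and not in the window, the core was present for 108 of 147 final and 121 of 168 other members. Over genes, a final summit was present at 27.7% of the 441 with the core and 26.9% of the 171 without, a difference of 0.76 points (-7.37 to 8.25). The A box core GGCNNAGT was in 15% of final windows at tRNA genes (22), 7.14% of other windows at tRNA genes (12), 12.6% of final windows elsewhere and 5.41% of all nuclear windows.

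The hexamer AAGTCA, bound by NR2E receptors, was in 5.44% of final windows at tRNA genes (8 of 147, 2.78 to 10.4) and 5.36% of the other windows at tRNA genes (9 of 168), against 5.06% of all nuclear windows. Final windows elsewhere had it in 2.83% (18 of 636, 1.80 to 4.43). The related half-site AGGTCA was in 12.9% of the final windows at tRNA genes (19) and 7.14% of the others (12), against 3.14% of final windows elsewhere and 4.13% of all. In 15 of these 19 and 11 of these 12 windows a match lay wholly inside a tRNA gene, where this hexamer is part of the gene sequence of 47 of the 612 genes, C02B4.t2 and C33G3.t2 among them. The repeat GAGAGA was in 25.2% of final windows at tRNA genes (37, 18.8 to 32.8), 12.5% of the others (21, 8.32 to 18.4), 24.8% of final windows elsewhere and 17.1% of all. In 4 of the 37 a match lay inside a tRNA gene. A match is a description of the letters in the window.

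The genes that make and use the tRNA machinery were examined as a list of 13, all matched in the annotation. A candidate summit lay within 500 bp of the 5′ end at 3 of 13 genes and a final one at 1 of 13, against 19.8% and 2.64% of protein-coding genes. The final one was at rpac-19, a small subunit that RNA polymerases I and III share, with a signal of 121 and the summit 127 bp from the 5′ end. The other candidates were at rpc-1, the largest subunit of RNA polymerase III, with a signal of 36.3, and at tftc-3, a TFIIIC subunit, with 35.2. No candidate summit lay that close to rpc-2 and rpac-40 of the polymerase, brf-1 and tbp-1 of TFIIIB, tftc-1 and tftc-5 of TFIIIC, the repressor mafr-1, the 3′ end nuclease gene hoe-1, the tRNA ligase gene rtcb-1 or the exportin gene xpo-3. None of the 3 summits was near a tRNA gene.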

How the data were processed

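Peak lists on ce11, deposited by the authors, were used for each replicate, for the pooled replicates and for the final list; per the file headers, a control was also input to the calling. Aligner, peak caller, reproducibility threshold and depth: not given in the sources used here. The deposited signal is a score of the authors' peak caller with no stated scale. The deposited −log10 q-value was read and not used for ranking. Genes were from Ensembl release 115 (WBcel235), isotypes and pseudogenes from RefSeq, matched for 612 of 612 tRNA genes. Anticodons were read by pairing the acceptor and anticodon arms and kept where they decode to the annotated isotype. An intron-hosted gene lay wholly inside a protein-coding gene and overlapped none of its exons. Regions were called final at an overlap of at least 1 bp. Word uniqueness used 31-base words and 200 bp flanks. Shares have 95% Wilson intervals, differences 95% Newcombe intervals. Computations used Python 3.11.15, numpy 2.4.6, pandas 2.3.3 and scipy 1.17.1. Only the merging of peaks, the position relative to the gene and the Newcombe interval were tested on simulated data.

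The named tRNA genes are those of the 10 strongest regions, the 3 members on either side of the final list's edge, the strongest region of each isotype, the 3 final regions with the most different replicate ranks and the 3 regions on either side of 500 bp. Pseudogenes and the family of copies were chosen for naming once values had been seen. The members and lists were chosen with earlier results of these data known. The 2 replicates form 1 group, so no groups of samples were compared. The older-build lists were not used. Gene sequences were printed for the strongest regions off chromosome I whose gene has no exact copy there, each sequence once.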

Additional observations from a re-analysis of the deposited data

How the results depend on the processing

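The share of tRNA-gene regions in the final list was 41.2% with a limit of 1000 bp and 26% for the stronger 415 peaks of the final list, which are fewer by construction, and the share of genes with a final summit was then 15.4%. The difference between X and autosomes was 9.48 points for genes with 1 copy and 6.75 counted over genes, an alternative added after seeing the data, and both intervals included 0. The difference between inside and beside fell to 11.3 points within 100 bp and 8.27 with peaks not merged. That between clustered and lone genes was -2.92 and -8.02 points for clusters of 500 and 5000 bp. Spearman's rho was 0.79 in final regions only. The median summit position was 29 with peaks not merged and 10 in the stronger 415 peaks. The causes were not tested. The other alternatives left these results on the same side of their limits, the difference for host introns among them. With the pooled regions kept, the strongest peaks of each replicate gave the same directions except for host introns, where the difference was near 0. No paired analysis was possible because both replicates belong to 1 group. Unknown depth and the 436 bp peak width limit what can be seen at weak regions and how finely summits are placed.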
